A study of Mus musculus with 8 samples.

Results

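The comparison described here set 4 cell lines derived from MYCN-induced tumours against 1 library labelled as GFP-transfected JoMa1, so that it used 5 of the 8 arrays of the study. The arrays were chosen by their titles, the tumour lines being those numbered 3 to 6, and no measured value entered the choice. JoMa1 is a mouse neural crest precursor line, isolated from embryos that carry a tamoxifen-activated MYC fusion gene. All cells were therefore of that mouse background. The labels do not say which cultures received tamoxifen. The tumour lines came from JoMa1 transfected with MYCN (JoMa1-MYCN), which formed tumours in immunocompromised mice, and the labels call the 4 tumours independent. The mice's strain, age and sex, the MYCN vector and its promoter, and whether transfected cells were a clone or a pool, are likewise unstated. A further 3 arrays of parental JoMa1 are given beside the results as context. Every probe set with a single gene symbol was tested, 34945 of 45101. Each of 18193 genes was read from 1 of its probe sets, the brightest on average across the 8 arrays.

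MYCN is a basic helix-loop-helix transcription factor that binds DNA as a dimer with MAX and drives genes of ribosome production, nucleotide synthesis and cell growth. Its amplification marks high-risk neuroblastoma, a childhood tumour of the sympathetic lineage, which itself arises from the neural crest. The neural crest is a migratory embryonic cell population that also gives rise to Schwann cells, melanocytes, smooth muscle and connective tissue of the face. JoMa1 cells can be driven towards several of these fates in culture.

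Levels are log2 values made with RMA, a method that subtracts background and brings all arrays to a shared distribution, so that a difference of 1 is a 2-fold change. Differences are given as the mean of the tumour lines minus the GFP-labelled library, with a standard error (SE). The single library has no spread of its own. The SE rests on the 4 tumour lines and assumes that the single library would vary like them. Calls were made in limma where the adjusted p was below 0.05. An exact permutation test over 5 arrays, 4 against 1, cannot give a p below 0.2 for any gene, so the calls come only from the model fitted across all probe sets. Array medians ran from 6.26 to 6.30. Across all 45101 probe sets, tumour lines correlated with each other at 0.990 to 0.994, and with the GFP-labelled library at 0.944 to 0.954. The GFP-labelled library correlated with parental arrays at 0.977 to 0.979. These points share the same probe sets, and probe sets are not independent. Bacterial trpnX controls, which mark the level of no signal, read 3.84 on the GFP-labelled library and 3.90 to 4.04 on the tumour lines on average over 3 probe sets. The highest of these reached 4.17 on that library and 4.34 to 4.47 on the tumour lines. Where the single library, or every tumour line, was at or below that highest control, the fold is given as at least the value computed against it. The fitted difference of such a gene, and its rank by size, are then set by the floor of the arrays. For Actb, the 3' probe set exceeded the 5' one by 0.616 on the GFP-labelled library and 0.516 to 0.613 on the tumour lines, and for Gapdh by 0.075 against 0.092 to 0.151. Both are signs of RNA quality, but they differed in direction. The GFP-labelled library lay narrowly above all tumour lines for Actb and below all of them for Gapdh, so the 2 signs gave no common order. Their part in the results was not tested.

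The transfected gene was read first, because it checks the labels. The brightest Mycn probe set read 14.13, 14.08, 14.20 and 14.26 in tumour lines 3, 4, 5 and 6, and 11.73 in the GFP-labelled library. The parental arrays read 7.29, 7.49 and 7.49. The GFP-labelled library thus lay far above the parental arrays with this probe set, although its label names GFP and no MYCN transfection. Its Mycn level goes against its label. A second probe set of Mycn, which was bright in parental arrays (8.01 to 8.23), read 4.33 in the GFP-labelled library and 4.53 to 4.69 in the tumour lines. The GFP-labelled library thus shared with the tumour lines both the high signal of one Mycn probe set and the low signal of the other. The remaining probe set lay at 5.88 in that library and at 5.90 to 6.23 in tumour lines. With the brightest probe set, tumour lines were higher by 2.43 (SE 0.12, 5.4-fold), with an adjusted p of 0.000228, and the other probe sets were not called (0.27 and 0.18). Averaged over the 3 probe sets, the difference was 0.96. Every direction below is drawn against a library whose Mycn signal does not match its label. The labels do not give the species of the transfected MYCN or the part of it that each probe set binds.

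**Figure D1:**
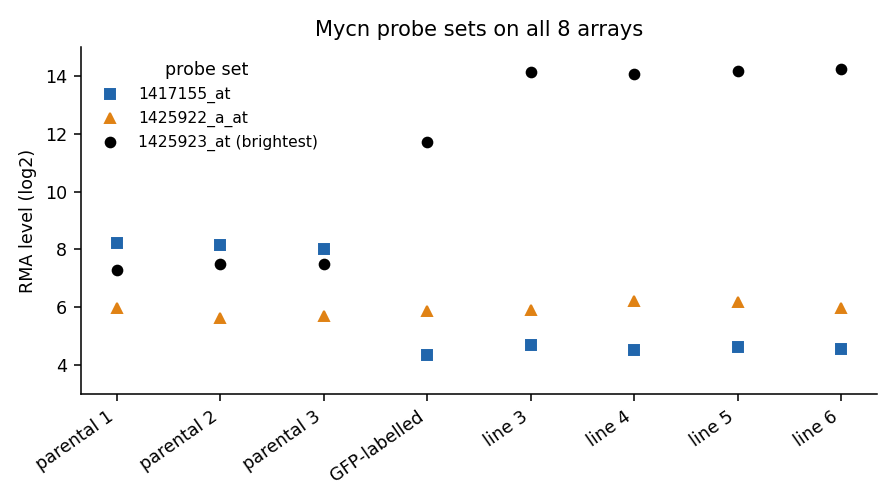
Level of the 3 Mycn probe sets (log2, vertical axis) on each of the 8 arrays (horizontal axis), 1 point per array and probe set. The brightest probe set stands at 11.73 in the GFP-labelled library, between the parental arrays and the tumour lines, while the probe set that is bright in parental arrays is at 4.33 there and lies at 4.53 to 4.69 in the tumour lines.

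Of the 34945 probe sets, 7416 (21.2%) were called. Counted as genes, 4048 of 18193 (22.3%) passed, of which 1904 (10.5%) were higher in tumour lines and 2144 (11.8%) lower. With a change of at least 2-fold added, 1101 genes (6.05%) were higher and 908 (4.99%) lower. The median difference of all genes was 0.02 and the median SD over the 4 tumour lines 0.13. A rule of size without a test took genes for which the GFP-labelled library lay at least 1 from the nearest tumour line and farther from it than the tumour lines lay from each other. It took 905 genes (4.97%) that were higher and 625 (3.44%) that were lower. All shares below are read against these. The gene lists were chosen with earlier results of these data known, so a list share above them may follow in part from that choice.

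**Figure D2:**
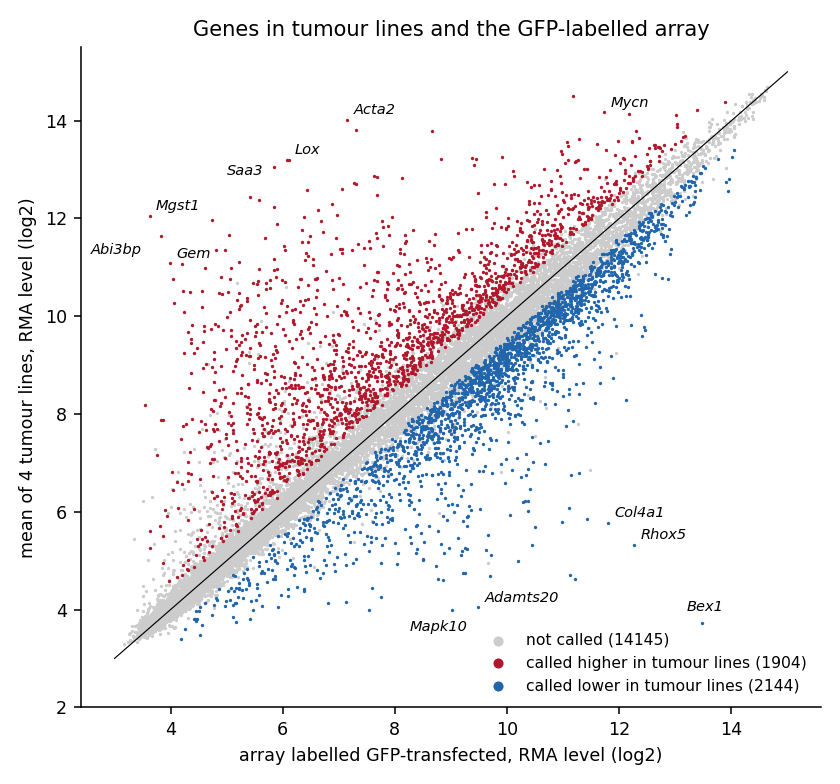
Each point is 1 of 18193 genes, with its level in the GFP-labelled library (log2, horizontal axis) against the mean of the 4 tumour lines (log2, vertical axis); the line marks equal levels. Called genes are coloured, 1904 above the line and 2144 below it, and the farthest points below the line belong to Bex1 and Rhox5.

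The largest fitted rises were those of Mgst1, Abi3bp, Timp3, Saa3, Lox, Cd24a, Gem, Cxcl12, Ackr3, Acta2, Rtp4 and Pate14. Mgst1, a membrane-bound glutathione transferase, read 11.74, 12.12, 13.07 and 11.28 in tumour lines 3 to 6 and 3.64 in the GFP-labelled library, a difference of 8.42 (SE 0.61, at least 235-fold). The single library lay at the level of no signal, while parental arrays had 8.31 ± 0.15. Another probe set of Mgst1 was dim in both groups and was not called (-0.07). Abi3bp, which encodes a matrix protein, stood at 11.20, 11.43, 12.14 and 11.79 against 3.83, higher by 7.81 (SE 0.35, at least 177-fold), with parental arrays between them at 8.45 ± 0.21. Cd24a, a surface glycoprotein of immature cells, read 13.42, 13.44, 12.96 and 13.00 against 6.12 and differed by 7.09 (SE 0.23, 136-fold). The small GTPase gene Gem read 11.04, 10.87, 11.63 and 10.78 against 3.99, a difference of 7.09 (SE 0.32, at least 120.0-fold). The genes of this ranking were picked among called genes with every line at least 1 from the single library. The wide gap of these 4 genes thus follows from the choice. Their adjusted p in limma ran from 8.22e-05 to 0.000895. The chemokine gene Cxcl12 (12.47, 12.85, 11.84 and 12.62 against 5.42, difference 7.02, SE 0.36, 130.0-fold) and Ackr3, the scavenging receptor for its product (11.10, 10.60, 11.49 and 11.11 against 4.20, difference 6.87, SE 0.31, 117-fold), both rose. Of the other Cxcl12 probe sets, 1 rose as well (5.64) and 1 was dim and not called (0.24). Pate14 rose by 6.72 (SE 0.32, at least 96.4-fold), from 4.05 to 11.12, 10.29, 11.03 and 10.62, and its parental level of 4.25 ± 0.36 was close to that of the single library.

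The largest fitted fall was that of Bex1, an X-linked adaptor protein gene of the nervous system. It read 13.48 in the GFP-labelled library and 3.67, 3.65, 3.70 and 3.87 in tumour lines 3 to 6 (-9.75, SE 0.13, at least 537-fold), with an adjusted p of 1.66e-05. All tumour lines thus lay at the level of no signal, and parental arrays at 12.97 ± 0.01. Rhox5, an X-linked homeobox gene of the reproductive tract, read 12.27 against 5.58, 5.13, 5.38 and 5.23 and fell by 6.94 (SE 0.18). Slc38a4, an amino acid transporter, read 11.20 against 5.30, 5.27, 3.70 and 4.23 (-6.58, SE 0.64, 95.4-fold), and the plasminogen activator inhibitor gene Serpinb2 11.13 against 4.16, 4.47, 5.86 and 4.37 (-6.42, SE 0.63, 85.3-fold). These 4 genes were bright in the single library and in parental arrays alike. Tmem47, a membrane protein gene, fell by 5.20 (SE 0.62) and Itga6, a subunit of laminin receptors, by 5.02 (SE 0.76), from 11.10 to 6.15, 5.27, 7.38 and 5.52. Mcpt8, a protease gene of basophils, fell by 5.13 (SE 0.18).

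Other falls were seen where the GFP-labelled library stood above the parental arrays as well. Mapk10, the neuronal JNK kinase gene, read 9.02 in that library against 4.01, 4.18, 4.10 and 3.69 in tumour lines and 4.30 ± 0.09 in parental arrays. Its difference from the tumour lines was -5.03 (SE 0.20, at least 24.5-fold). Fgfbp1, a carrier of fibroblast growth factors, read 10.19 against 4.97, 5.09, 5.01 and 4.86 (-5.21, SE 0.13, 37-fold), with parental arrays at 6.26 ± 0.07. The metalloprotease gene Adamts20 read 9.49 against 4.22, 3.76, 4.11 and 4.09 (-5.45, SE 0.19, at least 33.8-fold), with parental arrays at 7.49 ± 0.06. For Mapk10 the tumour lines were thus near the parental level, and the single library was the one apart. A second probe set of Mapk10 fell too (-2.76), and another was dim and not called (0.08).

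**Figure D3:**
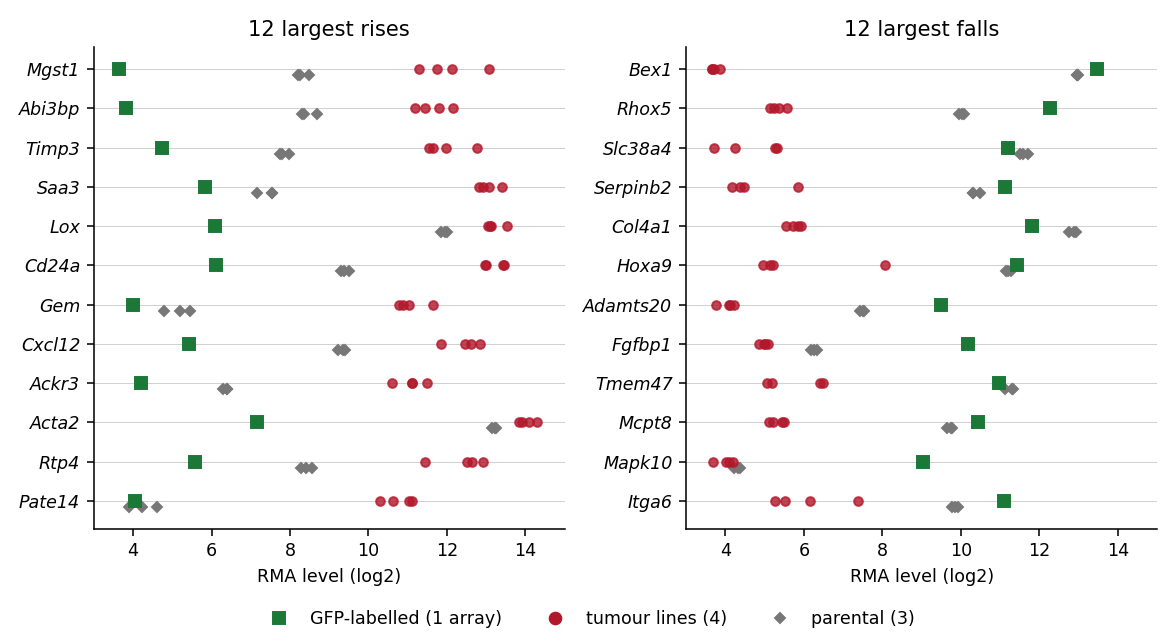
Level (log2, horizontal axis) of the 12 genes with the largest rise (left) and the 12 with the largest fall (right) among called genes, in the GFP-labelled library (squares), the 4 tumour lines (circles) and the 3 parental arrays (diamonds). The 24 genes were picked so that all tumour lines lie at least 1 from the GFP-labelled library. The parental arrays lie near the single library for Pate14 and near the tumour lines for Acta2 and Mapk10.

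Genes of connective tissue were higher in tumour lines. Of 22 fibroblast and fibrillar collagen genes measured, 17 rose and 0 (limma, 0 at an unadjusted p under 0.05) fell, with a median of 3.84. The median was 2.52 with probe sets averaged by gene. Lox, the enzyme that cross-links collagen, read 13.12, 13.04, 13.09 and 13.52 in tumour lines 3 to 6 and 6.08 in the GFP-labelled library, a difference of 7.12 (SE 0.20, 139-fold) with an adjusted p of 6.65e-05. The matricellular protein gene Postn rose by 5.90 (SE 0.54, 59.7-fold), from 5.09 to 10.76, 11.28, 11.72 and 10.19, and Mgp, which encodes an inhibitor of matrix calcification, by 5.89 (SE 0.53, 59.2-fold), from 5.23 to 11.03, 11.98, 11.04 and 10.41. Parental arrays did not share the low levels of the single library: they had 11.93 ± 0.08 for Lox, 11.68 ± 0.07 for Postn and 10.08 ± 0.12 for Mgp. The median level of the list was 6.27 in the GFP-labelled library, 10.96 to 11.21 in the tumour lines and 10.58 to 10.70 in the parental arrays, so that the library labelled GFP-transfected stood apart from both. The mesenchymal intermediate filament gene Vim was high in all (13.98 in that library, 13.94 on average in tumour lines, not called). In these bulk samples, fewer cells of a type and less RNA per cell cannot be told apart.

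Smooth muscle genes went the same way, 8 of 15 up and 0 (limma, 0 at an unadjusted p under 0.05) down, with a median of 0.61. Without tumour line 5, 1 gene was called lower. The smooth muscle actin gene Acta2 read 13.90, 14.08, 13.82 and 14.28 against 7.15 (6.87, SE 0.19, 117-fold), and the actin-binding protein gene Tagln 12.66, 12.57, 12.57 and 13.68 against 7.63 (5.24, SE 0.44, 37.9-fold). Both were also high in parental arrays, at 13.21 ± 0.05 and 12.94 ± 0.03. Cnn1, which encodes the contractile protein calponin, rose by 5.02 (SE 0.58, 32.5-fold) from 5.06 to 9.47, 9.63, 10.16 and 11.06, and here parental arrays were as low as the single library, at 5.04 ± 0.12. Acta2 was read from a probe set that may bind several transcripts, and without those it stood at 1.92. Averaged over its probe sets it differed by 3.10. Of 2 dimmer probe sets of Acta2, 1 rose (1.92) and 1 was not called (0.50). The muscle regulator gene Myocd (5.07 against a tumour-line mean of 5.18) and the smooth muscle myosin gene Myh11 (4.53 and 4.83) were not called.

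Basement membrane genes changed in both directions. Of 17 measured, 6 fell and 2 rose, with a median of -0.30 that ran from -0.65 in line 3 to -0.04 in line 5. The median was -0.48 without line 5, -0.12 with averaged probe sets and -1.06 among brighter probe sets alone. The collagen IV chain genes Col4a1 (11.81 against 5.72, 5.94, 5.85 and 5.55, -6.04, SE 0.17, 65.9-fold) and Col4a2 (9.69 against 4.55, 4.74, 4.79 and 4.70, -4.99, SE 0.13, 31.8-fold) fell most, followed by Nid1, which links collagen IV to laminin (12.45 against 9.33, 9.82, 9.67 and 10.28, -2.68, SE 0.33, 6.39-fold). Sparc, which encodes a collagen-binding glycoprotein, rose by 1.29 (SE 0.13, 2.45-fold), and of its other probe sets 1 rose (1.54) and 1 was not called (0.17). Parental arrays had 12.86 ± 0.09 for Col4a1 and 10.88 ± 0.08 for Col4a2, above the single library, so that the tumour lines were the ones apart. Matrix proteases and inhibitors rose, 10 of 19, while 1 fell, namely Serpinb2, and the median was 1.62. Timp3, an inhibitor of metalloproteases that is bound to matrix, read 11.64, 11.53, 12.76 and 11.97 against 4.73 (7.24, SE 0.45, 151-fold). The membrane-type protease gene Mmp14 read 11.84, 11.28, 11.12 and 10.42 against 5.84 (5.33, SE 0.48, 40.2-fold), and the aggrecanase gene Adamts5 rose by 4.21 (SE 0.35, 18.6-fold). Averaged over its probe sets, of which 1 was at the level of no signal, Adamts5 differed by 2.52.

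Genes of TGF-beta and BMP signalling, which are growth factors that act through Smad proteins, were in part higher. Of 24 measured, 12 rose and 1 fell, with a median of 1.14. Among ligands, Bmp2 rose by 4.08 and Bmp4 by 3.16, while Bmp7 fell by 1.60 (SE 0.14). With all 8 arrays in the fit, or with averaged probe sets, 2 genes of the list were called lower. Among targets, the transcription regulator gene Id3 read 12.31, 12.59, 12.01 and 12.30 against 6.89 (5.42, SE 0.21, 42.7-fold) and Id2 11.82, 11.81, 11.41 and 11.84 against 6.71 (5.01, SE 0.19, 32.3-fold). Smad6, an inhibitory Smad of the BMP branch, read 9.55, 9.99, 9.48 and 9.95 against 4.72 (5.02, SE 0.23, 32.5-fold). The parental level of Id3 was close to that of tumour lines (11.54 ± 0.05), whereas those of Id2 (7.93 ± 0.11) and Smad6 (6.57 ± 0.06) were nearer to the single library.

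Interferon-response genes were higher in the tumour lines. Interferons are secreted proteins that switch on antiviral genes, many of which hold an element of paired GAAA motifs in their promoters. Of 28 genes measured, 20 rose and 0 (limma, 0 at an unadjusted p under 0.05) fell, with a median of 3.16. Beside the levels, the RefSeq promoters (GRCm38.p6, 250 bases before to 50 after the start) of the 3 called genes with the largest difference that hold the motif are shown, since these members moved together. Capitals mark GAAANNGAAA on either strand, where overlapping matches would be counted apart. A start may differ from the one used in these cells.

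Ifit1, chr19:34640639-34640938, plus strand: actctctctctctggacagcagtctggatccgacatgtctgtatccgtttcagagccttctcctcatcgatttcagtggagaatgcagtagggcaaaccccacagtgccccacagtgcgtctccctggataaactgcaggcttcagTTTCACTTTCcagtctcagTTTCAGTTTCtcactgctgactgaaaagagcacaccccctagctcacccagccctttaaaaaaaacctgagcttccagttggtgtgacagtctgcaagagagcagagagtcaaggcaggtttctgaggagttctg

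Gbp3, chr3:142559794-142560093, plus strand: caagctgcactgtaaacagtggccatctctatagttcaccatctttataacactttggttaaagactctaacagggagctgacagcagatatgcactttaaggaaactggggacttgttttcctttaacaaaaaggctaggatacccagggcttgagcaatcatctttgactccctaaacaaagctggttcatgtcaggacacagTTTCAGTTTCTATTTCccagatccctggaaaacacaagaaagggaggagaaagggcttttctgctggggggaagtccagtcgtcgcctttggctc

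Gbp2, chr3:142620413-142620712, plus strand: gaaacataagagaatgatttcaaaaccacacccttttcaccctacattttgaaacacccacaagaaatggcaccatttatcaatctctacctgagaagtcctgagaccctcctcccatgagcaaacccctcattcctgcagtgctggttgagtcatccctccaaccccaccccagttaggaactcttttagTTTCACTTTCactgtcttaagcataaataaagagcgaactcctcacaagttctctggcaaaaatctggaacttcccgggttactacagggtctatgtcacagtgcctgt

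Promoters were found for 22 of the 28 measured genes, and 13 of these genes held the motif. Among called genes it was 11 of 16, and among genes not called 2 of 6. Counted by gene in the same way, 3.99% of all 27025 genes held it. Counted by promoter, it was 48.1% of the 27 promoters of the list and 3.44% of all 32851 promoters of 300 bases. A match is a stretch of letters and no measured binding site. Ifit1, an antiviral RNA-binding protein gene with 2 matches, read 10.24, 11.32, 12.31 and 11.54 in tumour lines 3, 4, 5 and 6, 4.81 in the GFP-labelled library and 8.32 ± 0.09 in parental arrays. The difference from the single library was 6.54 (SE 0.69, 92.9-fold), adjusted p 0.00262. Gbp3, which encodes an interferon-induced GTPase and also has 2 matches, rose by 5.39, and its relative Gbp2, with 1, by 5.10.

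Rtp4, a chaperone gene induced by interferon, had the largest difference in the list, 6.81 (SE 0.53, 112-fold), from 5.57 to 11.43, 12.63, 12.93 and 12.52. Another probe set of Rtp4 narrowly missed the threshold (1.69, adjusted p 0.0542). Usp18, the protease that removes ISG15 from proteins and dampens the response, read 9.06, 10.38, 12.01 and 10.63 against 4.57 (5.95, SE 0.97, 62-fold, adjusted p 0.01). Line 5 was highest and line 3 lowest in all 3 of Ifit1, Rtp4 and Usp18. Line 5 was also highest and line 3 lowest by the list median, which lay above the GFP-labelled library by 2.33 in line 3, 3.24 in line 4, 4.34 in line 5 and 3.27 in line 6. The median level of the list was 6.33 in the GFP-labelled library, 9.30 to 11.33 in tumour lines and 7.97 to 7.99 in parental arrays. Members that were not called include Irf7 (5.04 against 6.83, 7.51, 9.83 and 7.74), Rsad2 (7.45 against 8.37, 9.01, 11.54 and 10.48) and Isg20 (10.53 against 10.34, 10.15, 10.92 and 10.04). For Irf7 and Rsad2 all lines lay above the single library, and line 5 again was highest.

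Genes that load peptides onto MHC class I rose together with them, 14 of 16 measured with 0 (limma, 0 at an unadjusted p under 0.05) lower, and a median of 1.91. The immunoproteasome subunit genes Psmb8 (11.93, 12.52, 12.69 and 11.80 against 5.85, 6.39, SE 0.36, 83.8-fold) and Psmb9 (9.76, 10.05, 10.84 and 10.08 against 5.66, 4.52, SE 0.38, 23-fold) and the class I heavy chain gene H2-D1 (12.80, 13.27, 13.49 and 13.34 against 9.44, 3.78, SE 0.26, 13.7-fold) led the list. Class I genes are near-identical, and their probe sets may bind several of them; 2 dimmer probe sets of H2-D1 were not called (0.09 and 0.35). The peptide transporter genes Tap1 and Tap2 rose by 2.80 and 2.18. The general chaperone genes Canx and Pdia3 were not called (-0.08 and -0.11).

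Secreted defence proteins formed the next group. Of 16 acute phase and innate defence genes, 9 rose and 0 (limma, 0 at an unadjusted p under 0.05) fell (median 1.97). The acute phase protein gene Saa3 read 12.80, 13.06, 13.41 and 12.92 against 5.84 (7.20, SE 0.23, 148-fold), the protease inhibitor gene Slpi 13.89, 13.67, 14.08 and 13.61 against 7.30 (6.51, SE 0.20, 91.4-fold) and the siderophore-binding lipocalin gene Lcn2 9.79, 11.46, 10.37 and 10.36 against 4.34 (6.15, SE 0.57, 71.1-fold). Parental arrays lay near the single library for Slpi (7.61 ± 0.23) and Lcn2 (4.31 ± 0.10). Chemokine and cytokine genes rose in 10 of 21 cases, with 0 (limma, 0 at an unadjusted p under 0.05) lower (median 1.77). The T cell and monocyte attractant genes Ccl5 (12.37, 12.22, 13.92 and 12.85 against 7.68, 5.16, SE 0.62, 35.8-fold) and Ccl7 (12.21, 11.94, 12.03 and 12.12 against 6.98, 5.10, SE 0.14, 34.3-fold) followed Cxcl12. Il6 (4.51 against a mean of 7.01) and Tnf (5.72 and 5.87) were not called.

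Tumours in mice hold host blood and vessel cells, which are mouse cells too, and markers of them were read beside these groups. Among all genes, 10.5% were called higher and 11.8% lower. In the fit of 5 arrays, the counts of leukocyte and endothelial markers did not exceed these shares. Red blood cell markers called higher (1 of 5) and skeletal muscle and fat cell markers called lower (2 of 13) did exceed them, on few called genes. Of 20 macrophage and leukocyte markers, 2 rose and 0 (limma, 0 at an unadjusted p under 0.05) fell (median 0.13), namely Mpo, a granule enzyme gene of neutrophils (7.43, 6.47, 7.94 and 6.46 against 4.74, 2.33, SE 0.59, 5.04-fold), and Cd14 (1.35, SE 0.25, 2.55-fold). The call of Mpo, and with it 1 of the 2 rises, ended without tumour line 3 (adjusted p 0.0955). The summed level of the list (log2 of summed linear values) was 10.31 in the GFP-labelled library and 10.74 to 11.02 in the tumour lines, against 10.20 to 10.41 in parental arrays. The pan-leukocyte gene Ptprc read 4.08, 4.05, 4.14 and 4.07 in tumour lines and 4.25 in the single library, near the level of no signal. The myeloid genes Itgam (mean 4.13) and Aif1 (4.48) were near it as well in tumour lines. Of 12 endothelial markers 0 (limma, 0 at an unadjusted p under 0.05) rose and 1 fell, namely Cdh5 (6.71 against 4.68, 4.67, 4.67 and 4.97, -1.96, SE 0.16, 3.9-fold), with summed levels of 10.23 in the GFP-labelled library and 10.00 to 10.28 in tumour lines. The other Cdh5 probe set was dim and not called (0.20), and the average of both was -0.88. With all 8 arrays in the fit, 2 endothelial markers were called lower. Of 5 red blood cell markers 1 rose and 0 (limma, 0 at an unadjusted p under 0.05) fell. The one that rose was the transcription factor gene Klf1 (1.79, SE 0.19, 3.46-fold), while the haemoglobin gene Hba-a1 was not called (4.96 and 4.78), and the summed levels were 7.31 and 7.88 to 8.10. Of 13 skeletal muscle and fat cell markers 0 (limma, 1 at an unadjusted p under 0.05) rose and 2 fell. With all 8 arrays in the fit, and without tumour line 4, 1 was called higher. The fatty acid carrier gene Fabp4 read 9.17 in the GFP-labelled library against 5.27, 4.72, 5.29 and 5.14 (-4.06, SE 0.24, 16.7-fold), and the muscle troponin gene Tnnt3 fell by 1.97 (SE 0.20). Of the other Fabp4 probe sets, 1 fell as well (-3.98) and 2 dim ones were not called (-0.26 and 0.06). The summed levels of that list were 10.35 and 9.44 to 10.26. The part of these markers in the results was not tested.

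**Figure D4:**
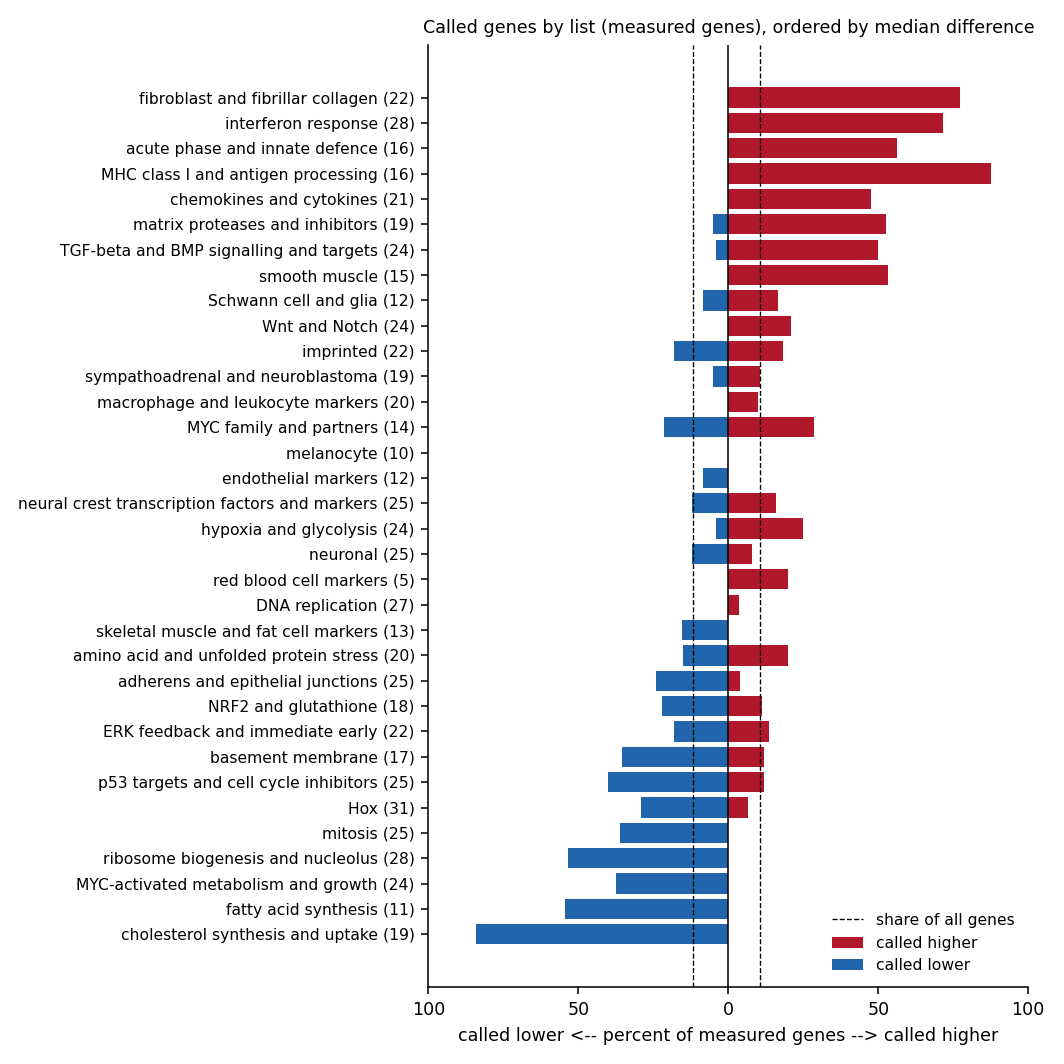
Percent of the measured genes of each of 34 lists that were called higher (right) or lower (left) in tumour lines than in the GFP-labelled library, with the number measured in parentheses; dashed lines mark the share of all genes, 10.5% and 11.8%. MHC class I, fibroblast and interferon lists reach farthest to the right, and cholesterol synthesis, fatty acid synthesis and ribosome biogenesis to the left.

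Cholesterol synthesis genes were lower in tumour lines. Cells make cholesterol from acetyl-CoA through the mevalonate pathway, which the transcription factor SREBP2 switches on when sterols are scarce. Of 19 genes measured, 16 fell and 0 (limma, 0 at an unadjusted p under 0.05) rose, with a median of -1.51. The sterol demethylation enzyme gene Msmo1 read 11.88 in the GFP-labelled library and 8.54, 9.03, 8.46 and 8.89 in tumour lines (-3.15, SE 0.24, 8.88-fold). Stard4, a sterol transport protein gene, read 11.85 against 9.28, 9.49, 8.78 and 9.21 (-2.66, SE 0.26, 6.31-fold), and Idi1, the isopentenyl diphosphate isomerase gene, 12.39 against 9.59, 10.66, 9.48 and 10.33 (-2.38, SE 0.47, 5.2-fold). The median level of the list was 10.58 in that library and 10.57 to 10.62 in parental arrays, against 9.21 to 9.47 in tumour lines, so that the tumour lines were the ones apart. Srebf2, the gene of SREBP2, fell by 1.01 (SE 0.12). Ebp (10.53 and a mean of 10.53) and Mvk (8.83 and 8.61) were not called. The 8-base motif CACCCCAC, a form of the sterol element, was found on either strand in the promoter of 1 of 15 genes (Hmgcs1). It was found for 3.3% of all genes and in 2.87% of all promoters. Fatty acid synthesis genes fell in 6 of 11 cases with 0 (limma, 0 at an unadjusted p under 0.05) higher (median -0.82), led by the desaturase gene Fads2 (10.06 against 7.80, 7.95, 7.37 and 8.07, -2.26, SE 0.26, 4.79-fold), the elongase gene Elovl6 (-1.67, SE 0.20, 3.18-fold) and the synthase gene Fasn (-1.31, SE 0.25, 2.47-fold).

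Neither list of genes known to be driven by MYC proteins held a gene called higher in tumour lines. Of 28 ribosome biogenesis genes, 15 fell and 0 (limma, 0 at an unadjusted p under 0.05) rose, with a median of -0.60. Rrp12, which acts in ribosome assembly, read 9.50 against 8.16, 7.61, 7.25 and 7.82 (-1.79, SE 0.32, 3.45-fold). Nolc1, a nucleolar phosphoprotein gene, read 12.91 against 11.55, 11.20, 10.90 and 11.40 (-1.65, SE 0.25, 3.13-fold), and Polr1b, a subunit of RNA polymerase I, differed by -1.61. The median of the list lay below the single library by nearly the same amount in every line (-0.60, -0.59, -0.65 and -0.60 in lines 3 to 6). Its level was 11.87 in the GFP-labelled library, 11.09 to 11.35 in tumour lines and 11.40 to 11.51 in parental arrays, so that library was the highest of all 8 arrays. Of 24 MYC-activated metabolic and growth genes, 9 fell and 0 (limma, 0 at an unadjusted p under 0.05) rose (median -0.62), and with all 8 arrays in the fit 14 were called lower. The glutamine transporter gene Slc1a5 read 9.60 against 7.51, 7.57, 7.72 and 7.78 (-1.95, SE 0.14, 3.87-fold), the purine synthesis gene Gart fell by 1.50 (SE 0.12) and the pyrimidine synthesis gene Cad by 1.35 (SE 0.29). A second probe set of Gart was not called (-0.46). The call of Cad ended without tumour line 6 (adjusted p 0.0532).

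In the MYC family itself, 4 of 14 rose and 3 fell (median 0.12). Myc rose by 2.67 (SE 0.43, 6.38-fold), from 7.23 to 9.98, 9.47, 9.55 and 10.61, and the parental level of 8.64 ± 0.12 lay between them. Whether this probe set also reads the MYC fusion gene of JoMa1 is not known, so the mouse's own Myc cannot be told apart from it. Mxd4, whose product competes with MYC for MAX, read 9.75, 9.77, 9.79 and 9.80 against 7.25 (2.53, SE 0.10, 5.77-fold), and parental arrays had 9.10 ± 0.07. Its other probe sets gave 1.61 and 1.79, both called, and 0.16, not called. Mlxip, of the related MondoA branch, fell by 1.16 (SE 0.21). Max itself was not called (difference -0.48, SE 0.23, 9.97 against 9.43, 9.16, 9.71 and 9.65).

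Some genes of cell division and of p53 signalling were lower. Of 25 mitosis genes, 9 fell and 0 (limma, 0 at an unadjusted p under 0.05) rose (median -0.48), among them the kinetochore gene Cenpf (-1.42, SE 0.23, 2.68-fold) and the spindle checkpoint kinase genes Bub1b (-1.03, SE 0.19, 2.04-fold) and Bub1 (-1.02, SE 0.18, 2.03-fold). Mki67, a marker of dividing cells, read 12.31 against 11.38, 11.59, 11.30 and 11.41 (-0.90, SE 0.14, 1.86-fold). Dimmer probe sets of Bub1 and Bub1b were not called, at 0.07 and 0.11. Averaged over its probe sets, Bub1 was at -0.48 and no longer called, and Bub1b was at -0.61. Among 27 DNA replication genes, 1 rose, Orc6 of the origin recognition complex (13.50, 13.33, 13.49 and 13.26 against 11.77, 1.63, SE 0.14, 3.09-fold), and 0 (limma, 5 at an unadjusted p under 0.05) fell. With all 8 arrays in the fit, and without tumour line 3, 1 gene of the list was called lower, and without tumour line 5, 2 were called higher. The share of this list called, 1 of 27, was below that of all genes. Targets of p53 and cell cycle inhibitors fell in 10 of 25 cases and rose in 3 (median -0.34). The kinase inhibitor gene Cdkn1a read 11.56 against 8.16, 8.08, 8.35 and 8.32 (-3.33, SE 0.14, 10.1-fold), the receptor gene Eda2r 9.05 against 5.74, 6.24, 5.87 and 6.12 (-3.05, SE 0.21, 8.29-fold) and the RNA-binding protein gene Zmat3 11.29 against 9.15, 9.09, 8.75 and 9.15 (-2.26, SE 0.18, 4.78-fold). Mdm2, which encodes the ubiquitin ligase of p53, fell by 1.65 (SE 0.10). The death receptor gene Fas rose by 1.67 (SE 0.40, 3.17-fold), a call that ended without tumour line 3 (adjusted p 0.0804), and Cdkn2a, which encodes the INK4A and ARF inhibitors, by 1.32 (SE 0.22, 2.5-fold), from 11.02 to 12.08, 12.57, 12.55 and 12.19. For Cdkn2a the parental arrays were at the level of tumour lines (12.26 ± 0.13).

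Neural crest identity was mixed. Of 25 crest genes, 4 rose and 3 fell, close to the share of all genes, with a median of 0.03. Snai2 and Snai1, repressors that act in crest migration, rose by 1.35 (SE 0.20, 2.56-fold) and 2.02 (SE 0.17, 4.06-fold). The stem cell factor gene Sox2 read 6.74, 8.94, 7.06 and 7.81 against 4.51 (3.13, SE 0.78, 8.76-fold), a call that ended without tumour line 6 (adjusted p 0.0872), when 2 crest genes were called higher. Tfap2b read 8.77 against 4.86, 4.71, 4.31 and 4.62 (-4.15, SE 0.21, 17.7-fold), with parental arrays at 9.82 ± 0.15. As a partial check of the cell type label, the crest genes Twist1 (9.36 and 9.39, 8.56, 9.82 and 9.55) and Snai2 (10.73 and 11.81, 12.14, 12.05 and 12.33) were clearly detected in all 5 arrays. Sox10 was at 7.35 and 7.47, 7.41, 7.41 and 7.40. Foxd3 (4.56 and a mean of 4.68) and Ngfr (5.56 and 5.47, 5.43, 5.08 and 5.46) were low in both, and none of Twist1, Sox10, Foxd3 and Ngfr was called. Levels of the further crest markers Sox9, Tfap2a, Pax3 and Nes are not given here. With some markers detected and others low, the check does not settle the label.

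Genes of the neural, glial and melanocyte lineages were mostly not called. In the sympathoadrenal and neuroblastoma list 2 of 19 rose and 1 fell, a share near that of all genes. The neuroblastoma oncogene Lmo1 read 8.79, 8.58, 8.26 and 7.80 against 5.38 (2.98, SE 0.36, 7.87-fold), with parental arrays at 5.76 ± 0.21. Cyb561 rose by 1.41 (SE 0.29, 2.65-fold), a call that ended without tumour line 6 (adjusted p 0.0544). The vesicle transporter gene Slc18a2 fell by 1.27 (SE 0.21, at least 1.62-fold), from 5.11 to a mean of 3.84. All tumour lines were at the level of no signal for it. Hand2 (4.80 and 4.80, 4.80, 4.86 and 4.84), the noradrenaline synthesis gene Th (5.08 and 5.24, 5.19, 5.17 and 5.15) and the receptor kinase gene Alk (5.47 and 5.80, 5.80, 5.78 and 5.90, difference 0.35, SE 0.11, adjusted p 0.0731) were not called. Among 25 neuronal genes 2 rose and 3 fell. The neuronal tubulin gene Tubb3 read 9.29 against 5.62, 5.85, 5.58 and 5.78 (-3.58, SE 0.14, 12-fold), the neurofilament gene Nefm fell by 1.05 (SE 0.19), and the dendritic protein gene Map2 read 6.67, 7.60, 7.08 and 7.27 against 3.76 (3.40, SE 0.33, at least 7.89-fold). The single library was at the level of no signal with this probe set. For Map2, 3 further probe sets were not called. Of 12 Schwann cell and glia genes 2 rose, Cnp (1.92, SE 0.14, 3.78-fold) and Pmp22 (1.51, SE 0.17, 2.84-fold), and 1 fell, the transcription factor gene Pou3f1 (10.67 against 7.33, 6.66, 7.74 and 6.18, -3.70, SE 0.56, 13-fold). The other Cnp probe sets rose by 0.94 and 0.48, and without probe sets that may bind several transcripts the value was 0.48. Of 10 melanocyte genes, 0 (limma, 2 at an unadjusted p under 0.05) rose and 0 (limma, 0 at an unadjusted p under 0.05) fell, also with all 8 arrays in the fit.

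Positional and imprinted genes changed in part. Hox genes, which are expressed in clusters and set position along the body axis, fell in 9 of 31 cases and rose in 2 (median -0.40). Hoxa9 read 11.42 in the GFP-labelled library and 5.14, 8.08, 5.21 and 4.95 in lines 3, 4, 5 and 6 (-5.57, SE 1.20, 47.6-fold, adjusted p 0.0243). Line 4 lay between the other lines and the single library, and the call ended without line 3 (adjusted p 0.0645) or line 6 (0.0545). Hoxa5 read 10.38 against 5.51, 6.49, 6.30 and 5.78 (-4.36, SE 0.38, 20.5-fold) and Hoxa10 8.28 against 5.19, 5.78, 5.27 and 5.21 (-2.92, SE 0.25, 7.57-fold). A second probe set gave -1.40 for Hoxa9 and -0.43 for Hoxa10, both called lower. Of the D cluster, Hoxd8 (9.34, 10.01, 9.63 and 9.39 against 6.75, 2.84, SE 0.26, 7.14-fold) and Hoxd9 (difference 2.83) rose. Among imprinted genes, of which only the copy of one parent is active, 4 of 22 rose and 4 fell. Peg10 (6.62, 6.75, 6.99 and 6.30 against 4.52, 2.14, SE 0.25, 4.41-fold) and its neighbour Sgce (9.75, 9.91, 9.94 and 9.79 against 7.94, 1.91, SE 0.13, 3.76-fold) both rose. A dim second probe set of Sgce was not called (0.05). The growth regulator gene Dlk1 read 10.33 against 6.84, 6.55, 6.98 and 6.65 (-3.58, SE 0.18, 12-fold), and its other probe set, the one left without those that may bind several transcripts, fell by less (-1.41). With averaged probe sets, 2 imprinted genes were called higher. Impact rose by 0.78 (SE 0.16, 1.72-fold), and 2 dimmer probe sets of it were not called (0.11 and -0.14). The growth factor gene Igf2 was not called (6.43 and 6.72, 6.53, 6.83 and 6.83). Lin28b, an oncofetal RNA-binding protein gene, fell by 0.65 (SE 0.11), from 4.25 to 3.65, 3.60, 3.54 and 3.63, all close to no signal, so that no fold is given.

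Of 25 junction genes 6 fell and 1 rose (median -0.14). Dsp, the desmosome plaque protein gene, read 10.50 against 6.44, 5.89, 5.83 and 4.57 (-4.82, SE 0.64, 28.2-fold), above the parental arrays (7.97 ± 0.08) in the single library and below them in the lines. Of its other probe sets 1 fell (-4.78) and a dim one was not called (-0.37). The tight junction scaffold gene Tjp1 fell by 0.98 (SE 0.18), and Epcam rose by 0.66 (SE 0.12, 1.58-fold), which without probe sets that may also bind other transcripts became 0.26 and was not called. Without tumour line 4, 4 junction genes were called higher. Of 24 Wnt and Notch genes 5 rose and 0 (limma, 2 at an unadjusted p under 0.05) fell, and with all 8 arrays in the fit limma called 8 higher and 2 lower. Without tumour line 5, 1 was called lower, and with averaged probe sets 3 were called higher. The Wnt antagonist genes Dkk2 (10.53, 9.05, 11.50 and 10.94 against 5.02, 5.48, SE 0.84, 44.8-fold) and Sfrp2 (10.07, 7.60, 9.81 and 9.03 against 4.78, 4.35, SE 0.89, 20.4-fold) rose, as did the receptor gene Fzd1 (1.07, SE 0.19, 2.1-fold). The call of Sfrp2 ended without tumour line 6 (adjusted p 0.0518). In the list of ERK feedback and immediate early genes 4 of 22 fell and 3 rose, the latter 5 without tumour line 4. The ERK-induced genes Etv4 (10.67 against 8.80, 8.59, 9.12 and 9.02, -1.79, SE 0.21, 3.45-fold), Spry1 (-1.61, SE 0.30, 3.06-fold) and Dusp5 (-1.34, SE 0.25, 2.53-fold) fell, whereas the AP-1 gene Junb read 11.79, 11.22, 11.86 and 11.29 against 8.20 (3.34, SE 0.28, 10.1-fold).

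The hypoxia, protein stress and glutathione lists held changes in both directions. Of 24 hypoxia and glycolysis genes 6 rose and 1 fell (median 0.00). Called lower were 5 with all 8 arrays in the fit, 4 without tumour line 4 and 2 without line 6. The collagen prolyl hydroxylase gene P4ha2 (10.39, 10.16, 10.51 and 10.34 against 7.16, 3.19, SE 0.15, 9.1-fold), the carbonic anhydrase gene Car9 (7.65, 7.78, 9.63 and 9.52 against 4.77, 3.88, SE 0.86, 14.7-fold) and the glucose transporter gene Slc2a3 (2.67, SE 0.34, 6.38-fold) rose, and the glycolysis enzyme gene Pfkp fell by 0.98 (SE 0.13), while its other probe sets were not called (-0.53 and -0.81). Slc2a3 was read from a probe set that can bind several transcripts, and without those it stood at -0.02. The call of Car9 ended without tumour line 6 (adjusted p 0.0513). In the amino acid and unfolded protein stress list 4 of 20 rose and 3 fell, with Vldlr (3.18, SE 0.25, 9.05-fold), the chaperone gene Dnajb9 (1.59, SE 0.29, 3.02-fold) and the transcription factor gene Xbp1 (1.56, SE 0.16, 2.94-fold) up and the arginine transporter gene Slc7a1 down (-1.28, SE 0.22, 2.42-fold). For Vldlr, 1 further probe set rose (2.26) and 4 were not called. Without probe sets that may bind several transcripts Vldlr stood at 0.76 and was not called (adjusted p 0.0975). Of the stress list, 5 were called lower with all 8 arrays in the fit and 1 without tumour line 3. Of 18 NRF2 and glutathione genes 4 fell and 2 rose. The glutathione reductase gene Gsr read 11.44 against 9.77, 9.94, 9.45 and 9.86 (-1.69, SE 0.20, 3.22-fold), the haem oxygenase gene Hmox1 10.01 against 8.56, 8.28, 8.36 and 8.69 (-1.54, SE 0.18, 2.9-fold), and the thioredoxin reductase gene Txnrd1 fell by 0.97 (SE 0.14). Both other Txnrd1 probe sets were not called (-0.49 and -0.37), nor was their average with the first (-0.61, adjusted p 0.0556). Gstm2, a glutathione transferase gene, went the other way, 9.53, 9.82, 9.64 and 9.50 against 5.28 (4.34, SE 0.15, 20.3-fold).

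A last set of genes was picked for the widest spread over the tumour lines among genes that were not called although their mean lay at least 2 from the GFP-labelled library. The SE rests on that same spread, so leaving out an outlying line can by itself turn such a gene into a called one. Calls of that kind below follow in part from how the genes were picked and are no added support. Plac8 read 9.01, 8.60, 12.59 and 12.55 in lines 3, 4, 5 and 6 against 5.18 (difference 5.51, SE 1.74, adjusted p 0.0774). Lines 5 and 6 were high, lines 3 and 4 lower, and all 4 above the single library. Tex19.1, a germ cell gene, read 10.88, 11.36, 9.02 and 6.60 against 6.45 (difference 3.01, SE 1.73), so that line 6 was near the single library and the others above it. Asb5 (8.49, 6.26, 10.49 and 10.86 against 4.67), the growth factor gene Epgn (11.07, 7.33, 11.72 and 9.46 against 5.62) and the synaptic scaffold gene Ppp1r9a (8.70, 8.76, 11.96 and 7.46 against 5.57) had all lines above it, with differences of 4.35, 4.28 and 3.65. The metallothionein gene Mt1 read 11.47 against 5.45, 5.95, 9.93 and 6.08 (difference -4.62, SE 1.65, adjusted p 0.108), and line 5 was the highest of the lines. Without line 5 the difference of Mt1 was -5.65 and was called (adjusted p 0.000664). Without line 4, Plac8 (6.21, adjusted p 0.0454), Asb5 (5.27, 0.0198) and Epgn (5.13, 0.0167) were called, and without line 5 so was Ppp1r9a (2.74, 0.0276). With all 8 arrays in the fit, Plac8 (adjusted p 0.02), Asb5 (0.0476), Epgn (0.0392) and Mt1 (0.0332) were called, and so was Plac8 among brighter probe sets alone (0.0481). The fit of 8 arrays also takes its spread from the 3 parental arrays and adds no tumour line, so its calls are no added support.

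**Figure D5:**
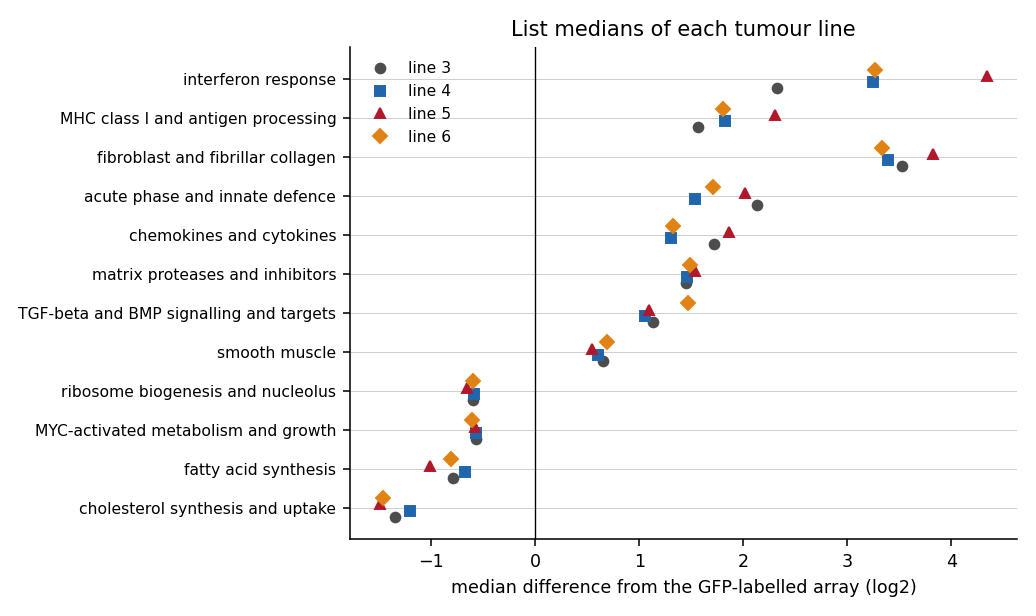
Median over the measured genes of a list of each tumour line minus the GFP-labelled library (log2, horizontal axis), 1 symbol per line, for 12 lists. The lines spread most for the interferon list, from 2.33 in line 3 to 4.34 in line 5, and least for the MYC-activated list, from -0.61 to -0.56.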

How the data were processed

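RNA of 8 mouse cell cultures was measured on 1-colour expression arrays, and the values used are the deposited log2 values, which the authors made with RMA and Partek per the submitters' processing notes, with no versions given. Depth does not apply to arrays, whose number limits the precision. Per the labels' titles, arrays were grouped as 4 tumour lines, 1 library labelled GFP-transfected and 3 parental. No value was normalized again. Of 45101 probe sets, 64 controls, 932 with several symbols and 9160 with none were left out. Of the other 34945, 34741 had an ID in the RefSeq table (GRCm38.p6), and 0 symbols changed. limma 3.58.1 in R 4.3.3 (lmFit, eBayes) fitted the 5 arrays, two-sided, with Benjamini-Hochberg adjustment over the 34945 probe sets. Residual degrees of freedom were 3 and prior ones 2.9. The p-values measure the spread between the tumour lines, which may share a transfected stock.

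The members and the 34 lists (667 of 711 genes measured) were chosen with earlier results of these data known. Named by rule were a set of anchor genes of the MYC family, the neural crest and the sympathetic lineage, growth control and blood cells (some are not reported here), 12 called genes with the highest and 12 with the lowest difference, provided that every line lay at least 1 beyond the single array, up to 3 called genes per list with the largest change in its main direction and 1 against it, and the 6 genes of largest SD among those not called with a mean difference of at least 2. Unnamed transcripts were left out. These were 136 genes. Other list members were named after their values were seen. The fit was run on simulated data in which the single array was drawn with the spread of the tumour lines. That run could not test whether the single array varies like them. Alternatives covered the probe sets used, the variance prior, the scaling, the arrays in the fit and each tumour line left out.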

Additional observations from a re-analysis of the deposited data

Results flagged for a closer look

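Among the 136 named genes, 10 had 1 tumour line whose gap to the nearest other line was above Dixon's critical share of the range of the 4 lines. Chance flags about 1 in 20 groups of this size, and 10 of 136 is close to that rate. The flags are therefore listed as values and not read as traits of a line. Mt1 was also named for its spread over these lines, which favours a flag. Line 4 stood apart for Hoxa9 (8.08, the others 4.95 to 5.21, the GFP-labelled library 11.42) and for Hoxa10 (5.78, the others 5.19 to 5.27, that library 8.28), so that it lay nearest to the single library in both. Line 5 stood apart for Mt1 (9.93, the others 5.45 to 6.08), Id2 (11.41, the others 11.81 to 11.84), Zmat3 (8.75, the others 9.09 to 9.15) and Ngfr (5.08, the others 5.43 to 5.47). Line 6 stood apart for Tagln (13.68, the others 12.57 to 12.66), Lox (13.52, the others 13.04 to 13.12) and Cdh5 (4.97, the others 4.67 to 4.68). Line 3 stood apart for Sox10 (7.47, the others 7.41 at most).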

How the results depend on the processing

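No paired analysis was possible because the GFP-labelled library is a single array and shares no replicate number with the tumour lines. That library, whose Mycn level goes against its label, cannot be left out of a comparison that rests on it alone. The number of called genes ran from 3218 without tumour line 3 to 5464 with all 8 arrays in the fit, of which 3105 and 4029 were among the 4048 called genes. The fit of 8 arrays takes part of its spread from the 3 parental arrays and adds no array to either side of the comparison. Counts of genes called in each direction, at 2-fold and by the rule of size stayed within 1.5 times under every alternative that gave them, and Mycn stayed called. Of 136 named genes, 130 kept their direction and call without tumour line 6, the fewest among the alternatives that gave all 136 a value. Centring each array on its median put the median difference of all genes at -0.07, and 38.1% of called genes were then higher. Genes not called changed sign: Hand2 was -0.0628 averaged over its probe sets, -0.0285 after a further quantile normalization and -0.0665 after centring, Sox10 was -0.0126 after centring, and Twist1 was 0.0542 after quantile normalization and ran from -0.195 without tumour line 5 to 0.226 without tumour line 4. Slc2a3, called, was -0.0168 without probe sets that can bind several transcripts. With probe sets averaged by gene, Bub1, Epcam, Impact and Txnrd1 lost their call, and with a trended and robust variance prior Car9, Hoxa9, Mpo, Sfrp2 and Sox2 did. Why was not tested. Restricting the fit to probe sets above the median level, which leaves out dim genes, put called lower at 4 for Hox and 2 for junction genes, and the median at 3.87 for acute phase, 1.51 for Schwann cell and 0.85 for Wnt and Notch genes. That level was the mean over the 5 arrays, 4 of them tumour lines. A gene bright only in the single library was thus left out more readily than one bright only in tumour lines. Counts and medians of brighter probe sets depend on this choice and give no support to a direction. The single array limits every value: its own spread is unknown.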
